A study of Mus musculus with 44 samples.

Results

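The flanks of the β-globin cluster described here are the stretches of mouse chromosome 7 between 110 kb and 1000 kb from position 110970000 (mm9), on both sides of the cluster. They are the regions labelled as lying 100 kb to 1 Mb away, although the rule that chose them starts at 110 kb. Every DpnII restriction fragment whose midpoint fell from position 109970000 to below 110860000 (the lower flank) or above 111080000 to 111970000 (the upper flank, on the side of the locus control region) was taken, whatever its count. Of 573960 fragments listed in the fixation table, 3602 belonged to the flanks, 1798 in the lower and 1804 in the upper flank, and they held 42536 of 1233547 interactions. Of 177756 fragments listed in the low-input table, 3235 did, of which 2101 had at least 1 interaction, and these held 10863 of 219192 interactions. The flank fragments shared by both tables made up 83.7% of those in the first and 93.2% of those in the second. A fragment had a median length of 310 bp in the fixation table, and the fragment with the most interactions held 417 over all 14 libraries.

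The data are Capture-C interaction counts from primary ter-119+ erythroid cells, sorted with an antibody against an erythroid surface marker from spleens of female C57BL/6 mice that had been made anaemic with phenylhydrazine. In the fixation series, aliquots of cells received 0%, 0.5%, 1%, 2%, 3%, 4% or 5% formaldehyde, with 2 technical replicates at each of the 7 concentrations (14 libraries). The unfixed aliquot was homogenised differently from the others and skipped a centrifugation, so lack of formaldehyde and this handling cannot be told apart. In the low-input series, 3C library from cells fixed with 2% formaldehyde was processed with LI-Capture-C (sonication and adaptor ligation) or Tag-Capture-C (a transposase) from 200, 100 or 50 ng, with 3 libraries in each of the 6 groups (18 libraries). The fixation replicates are technical, so p-values there measure the spread between concentrations and not between mice. The paper calls the low-input libraries of a group both aliquots of 3C library and biological replicates, so whether their spread includes that between mice is not settled by the sources used here. The 0% to 2% libraries and the 3% to 5% libraries are treated as batches below, although the sample titles name no batch. The first set held 94418 to 155233 β-globin interactions per library and the second 40235 to 57640. That both sets were prepared or sequenced apart is an assumption. Unique β-globin interactions ranged from 40235 to 155233 per fixed library, were 121729 and 119945 in the unfixed libraries, and ranged from 4564 to 28379 per low-input library.

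Capture-C counts how often a chosen restriction fragment, the viewpoint, became ligated to every other fragment after cross-linking and digestion of chromatin. Along a chromosome such ligation falls with distance, and a stretch that is contacted more than its distance predicts stands out from this decay. The adult β-globin genes encode the β chains of haemoglobin and are controlled by the locus control region, a group of enhancers on the side of higher coordinates. The cluster lies within a large array of olfactory receptor genes, which encode odorant receptors of sensory neurons and are not known for a role in red cells. In the RefSeq gene order of GRCm38, 57 of the 60 genes next to the cluster on the lower side are Olfr genes or pseudogenes. On the upper side 31 of 60 are, 23 of them before the first of 11 Trim genes, a family that holds antiviral restriction factors. That order comes from another build than the files, so no gene was placed in a window, and how both builds line up in this array was not tested.

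The promoters of both adult genes, named Hbb-b1 and Hbb-b2 in the labels, were captured and pooled as 1 viewpoint. RefSeq lists Hbb-bt and Hbb-bs as the adult genes in their place, and the sources used here do not say which fragments were captured. The RefSeq promoters of Hbb-bt and Hbb-bs (GRCm38.p6, both on the minus strand, 250 bases before to 50 after the gene start) are shown as the adult promoters listed there, not as the captured fragments, with the DpnII recognition sequence GATC, at which restriction fragments begin and end, in capitals.
Hbb-bt (chr7:103813874-103814173): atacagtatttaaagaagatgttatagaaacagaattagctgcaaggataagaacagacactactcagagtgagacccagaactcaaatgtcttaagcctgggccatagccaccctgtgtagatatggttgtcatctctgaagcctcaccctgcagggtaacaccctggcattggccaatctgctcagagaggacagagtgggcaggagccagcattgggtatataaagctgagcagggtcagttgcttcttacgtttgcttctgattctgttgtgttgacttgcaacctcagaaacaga
Hbb-bs (chr7:103827879-103828178): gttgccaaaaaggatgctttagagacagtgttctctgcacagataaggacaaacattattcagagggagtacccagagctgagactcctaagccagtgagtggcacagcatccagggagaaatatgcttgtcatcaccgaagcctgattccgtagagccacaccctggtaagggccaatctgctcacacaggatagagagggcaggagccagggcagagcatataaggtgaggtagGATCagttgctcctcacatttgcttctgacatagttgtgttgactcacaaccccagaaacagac
The Hbb-bs promoter holds 1 GATC, at base 237 of the window, and the Hbb-bt window holds 0. GATC, which reads the same on both strands, occurs in 48.0% of all 32851 RefSeq promoter windows of this length.

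In fixed cells the flanks were contacted far above the level of other chromosomes. Summed over both flanks, the number of interactions per 20 kb was 36.1 to 239 times the mean per 20 kb of all other chromosomes in the 12 fixed libraries. It was 122 to 209 times that level in the 18 low-input libraries, where the level rests on total counts and not on positions within other chromosomes. In the unfixed libraries it was 1.05 and 1.21 times that level, from 86 (95% exact Poisson interval 68.8 to 106) and 97 (78.7 to 118) flank interactions. These intervals cover counting error only. Over both unfixed libraries the 88 full windows of 20 kb held a median of 2 interactions, and 16 of them held 0. The window with the most was the upper one at 110 to 130 kb, with 10, against 6 in the next.

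Seen from the other viewpoints, which lie on other chromosomes, the same flanks were contacted at or below about the level of a region on another chromosome. In the fixation series the α-globin viewpoint gave 438 flank interactions, 167 of them in unfixed cells. The Slc25a37 viewpoint gave 164, of which 74 were in unfixed cells. Per 20 kb these were 0.280 to 1.24 times (α-globin) and 0.199 to 1.37 times (Slc25a37) the mean of all chromosomes other than the viewpoint's. In the unfixed libraries the ratio was 0.979 and 1.10 for α-globin and 0.932 and 1.18 for Slc25a37. In the 12 fixed libraries it was below 1 in 10 for α-globin (median 0.687) and in 9 for Slc25a37 (median 0.535). These ratios rest on 4 to 53 α-globin and 1 to 25 Slc25a37 interactions per fixed library, so counting error is large. The low-input tables were not used for this comparison. Their positions for fragments on other chromosomes were taken to be unreliable, which is not shown here.

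As a share of cis interactions, that is of all interactions on chromosome 7, the flanks held 1.18% and 1.29% in the unfixed libraries. They held 9.79% and 8.39% at 0.5% formaldehyde, 10.0% and 8.11% at 1%, and 8.50% and 7.42% at 2%. They held 7.73% and 7.10% at 3%, 7.41% and 7.08% at 4%, and 7.28% and 7.08% at 5%. The unfixed libraries lay below all others, the libraries of 0.5% and 1% lay above all those of 3% to 5%, and the 2 technical replicates of 0.5% and of 1% stood as far apart as many concentrations. The low-input libraries ranged from 6.40% to 8.55% with a median of 7.83%, within the range of fixed cells but for 2 libraries, an LI-Capture-C library from 50 ng at 6.40% and a Tag-Capture-C library from 100 ng at 7.00%.

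**Figure D1:**
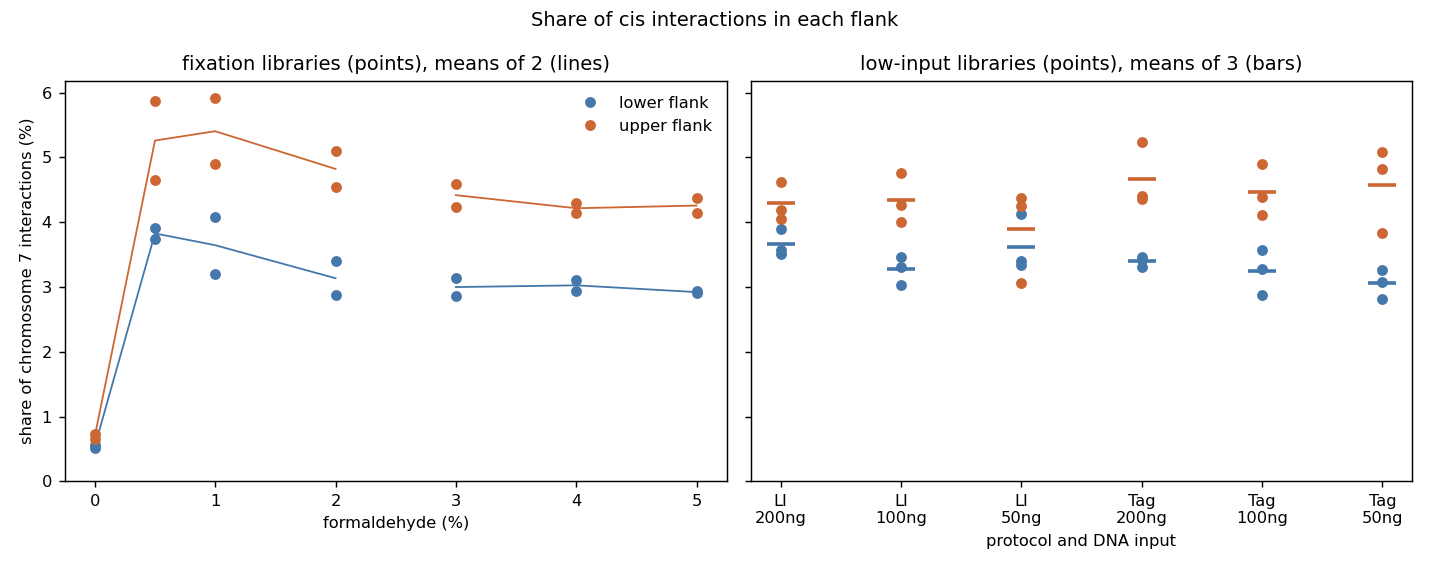
Share of chromosome 7 interactions (%) in the lower and the upper flank for each fixation library by formaldehyde concentration (left; lines join means of 2 within 0% to 2% and within 3% to 5%) and each low-input library by protocol and input (right; bars are means of 3). The upper flank lies above the lower flank in all 14 fixation libraries and in 17 of 18 low-input libraries.

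Across all 7 concentrations the share of cis interactions had a slope of 0.370 percentage points per 1% formaldehyde (exact two-sided permutation test over the concentration means, p = 0.659, adjusted over 4 slopes 0.659). Over the 6 fixed concentrations the direction was the opposite. There the share dropped by 0.474 percentage points per 1% (exact permutation p = 0.00694, adjusted over 4 slopes 0.0278). Within the batches the slope was 2.56 over 0% to 2%, -0.802 over 0.5% to 2% (exact p = 0.167, the smallest these 3 concentrations can give) and -0.119 over 3% to 5% (exact p = 0.333, the smallest there). As a share of all interactions, which also moves with the loss of contacts to other chromosomes, the flanks rose from 0.0706% and 0.0809% in unfixed cells to between 1.98% and 5.21% in fixed cells. This slope was 0.758 percentage points per 1% (exact p = 0.0335, adjusted 0.134), and 2.36 within 0% to 2%, 1.57 within 0.5% to 2% and 0.0990 within 3% to 5%. Contacts within 110 kb of the cluster changed in the same libraries. For every 100 of these local interactions the flanks held 33.9 and 29.8 interactions at 0.5%, 32.1 and 18.6 at 1%, 18.4 and 14.5 at 2%, and 13.2 to 15.3 at 3% to 5%.

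Within the flanks, contact was highest next to the cluster. The upper window at 110 to 130 kb (chr7:111080001-111100000) stood above every other window in each fixed library. Scaled to 100000 interactions per library, it held 362 and 176 interactions at 0.5% formaldehyde, 431 and 601 at 1%, 813 and 661 at 2%, 957 and 943 at 3%, 904 and 1048 at 4%, and 1000 and 991 at 5%. All 6 libraries of 3% to 5% exceeded all 6 libraries of 0.5% to 2%. This scale counts interactions on all chromosomes, and the percentage of them in cis rose too. It was 31.3% and 23.5% at 0.5%, 61.2% and 65.7% at 2%, and 64.3% to 70.1% at 3% to 5%. How much of the rise per 100000 comes from this was not tested, here or for the windows below. The low-input libraries, fixed with 2%, ranged from 549 to 947 with a median of 726. The window at the same distance on the lower flank (chr7:110840000-110859999) held 87.6 to 346 per 100000 in the fixed libraries and 241 to 537 in the low-input libraries. Among the low-input libraries this lower window had a median of 402, against 228 over the fixed libraries of all concentrations. The fixation libraries of 2%, the concentration of the low-input series, had a mean of 335. Protocol, series and depth differ between the low-input and the fixation libraries and cannot be told apart.

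**Figure D2:**
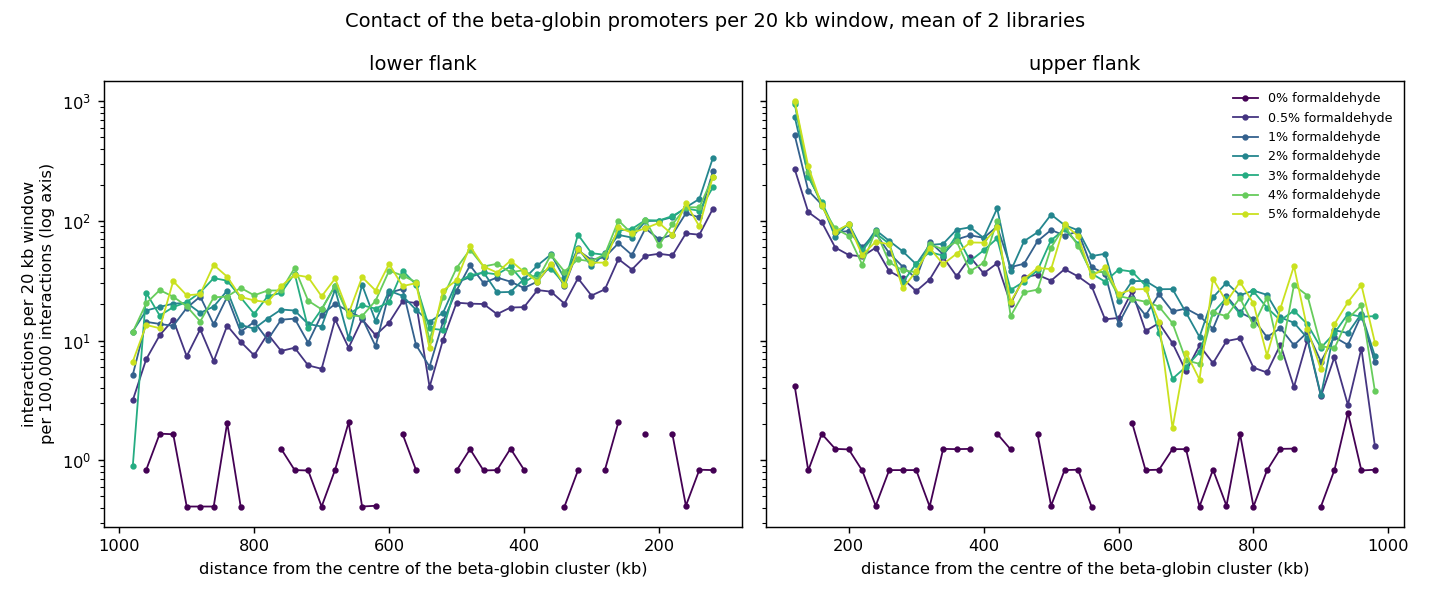
Interactions per 20 kb window per 100000 interactions (log axis, mean of 2 libraries) against distance from the centre of the β-globin cluster (kb) for each formaldehyde concentration, lower flank on the left and upper flank on the right; windows without an interaction are not drawn. All fixed concentrations fall from the innermost windows outwards, with a second rise near 500 kb on the upper flank, and the unfixed libraries lie low throughout, highest in the innermost upper window with a mean of 4.13.

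The distance decay was summarised by an exponent, the slope of the log of the count on the log of the distance over the 44 full windows of each flank, from a Poisson fit with a level of its own for each flank. An exponent of -1 would mean contact in inverse proportion to distance, and a more negative one a steeper fall. It ranged from -1.64 to -1.31 with a median of -1.51 in the 12 fixed libraries, and from -1.77 to -1.33 with a median of -1.55 in the 18 low-input libraries. In the unfixed libraries it was -0.280 and -0.156. The slope on formaldehyde was -0.159 per 1% over all concentrations (exact p = 0.119, adjusted 0.239) and -0.0326 over the fixed ones (exact permutation p adjusted 0.0852).

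Fitted in each flank apart, the exponents split between the libraries of 0.5% to 2% and those of 3% to 5%. On the upper flank the exponent was -1.62 and -1.33 at 0.5%, -1.54 and -1.40 at 1%, and -1.71 and -1.29 at 2%. It was -1.88 and -1.85 at 3%, -1.82 and -2.05 at 4%, and -1.86 and -1.90 at 5%. The upper flank thus fell more steeply in every library of 3% to 5% than in any of 0.5% to 2%. The lower flank went the other way, with -1.46 to -1.29 at 0.5% to 2% and -1.21 to -0.997 at 3% to 5%. The difference of upper minus lower exponent ranged from -0.327 to 0.174 in the libraries of 0.5% to 2% and from -0.910 to -0.668 in those of 3% to 5%. These ranges do not overlap, but each concentration lies in 1 batch, so batch and concentration cannot be told apart. Within 3% to 5% the concentration means of this difference were -0.713, -0.818 and -0.843. Within 0.5% to 2% the difference did not fall in this way. It was -0.327 and -0.0399 at 0.5%, -0.123 and -0.0546 at 1%, and -0.246 and 0.174 at 2%. The low-input libraries, fixed with 2%, ranged from -0.630 to 0.146 with a median of -0.170, nearer to the first set.

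**Figure D3:**
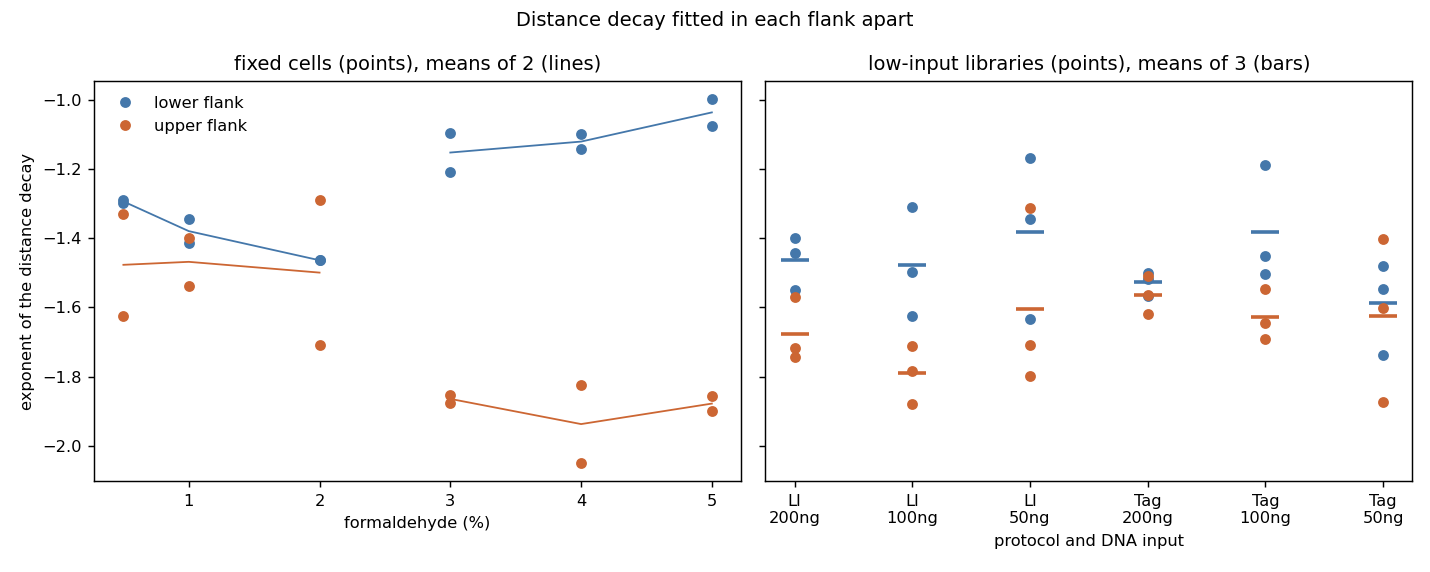
Exponent of the distance decay fitted in each flank apart, for each library of fixed cells by formaldehyde concentration (left; lines join means of 2 within 0.5% to 2% and within 3% to 5%) and each low-input library (right; bars are means of 3). At 3% to 5% the lower flank lies at -1.21 to -0.997 and the upper flank at -2.05 to -1.82, while both overlap at 0.5% to 2%.

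Averaged over the 7 concentrations, the upper exponent minus the lower one was -0.439 (exact two-sided sign-flip test over 7 concentration means, p = 0.0156, the smallest it can give, adjusted over 2 tests 0.0156). Over the 6 low-input groups the difference was -0.179 (exact p = 0.0313, the smallest it can give, adjusted 0.0313). Without replicate 1 of the unfixed cells the first difference was -0.337 (adjusted p = 0.141 by the same exact test), and without both unfixed libraries it was -0.447 (adjusted p = 0.0313, exact test). Without replicate 1 of the 50 ng LI-Capture-C libraries the second was -0.200 (adjusted p = 0.0625, exact test), and without replicate 3 of the 50 ng Tag-Capture-C libraries it was -0.149 (adjusted p = 0.0938, exact test).

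The upper flank was contacted more than the lower one. The log2 ratio of upper over lower interactions ranged from 0.32 to 0.66 in the fixed libraries. In the unfixed ones it was 0.34 and 0.39, from only 48 upper against 38 lower and 55 against 42 interactions. These lie at 1.05 and 1.21 times the level of other chromosomes, so the unfixed ratios carry little weight. The mean log2 ratio over 7 concentrations, unfixed cells included, was 0.51 (exact sign-flip test, p = 0.0156, adjusted 0.0156). Over the 6 fixed concentrations alone it was 0.54 (exact sign-flip test, p = 0.0313, adjusted 0.0313). The slope of the log2 ratio on formaldehyde was 0.02 per 1% (exact p = 0.365, adjusted 0.486). In the low-input libraries it ranged from -0.13 to 0.85 and was above 0 in 17 of 18. Its mean over the 6 groups was 0.37 (exact p = 0.0313, adjusted 0.0313, and 0.0625 without replicate 1 of the 50 ng LI-Capture-C libraries or without replicate 3 of the 50 ng Tag-Capture-C libraries). The listed fragments of the flanks cover nearly the same length, 794037 bp in the lower and 791969 bp in the upper flank of the fixation table.

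This excess was not spread evenly with distance. Comparing windows at the same distance, the upper flank held more in all 6 fixed concentrations at 12 of 44 distances and the lower flank at 5. At 8 and at 1 of these, respectively, the direction was the same in all 6 low-input groups too. From 110 to 170 kb the 6 fixed concentrations together gave 10011 upper and 4664 lower interactions, a ratio of 2.15, which was 1.80 at 0.5% to 2% and 2.94 at 3% to 5%. The low-input ratio was 1.61, with the upper flank ahead at 2 of these 3 distances. At 150 to 170 kb the low-input libraries gave 252 upper and 296 lower interactions, the lower flank being higher in 4 of 6 groups. From 250 to 310 kb the lower flank was ahead, with 1583 against 1323 interactions and a ratio of 0.836 (low-input 0.616). From 310 to 590 kb the upper flank was ahead, in these sums, at 14 consecutive distances, with 7966 against 4192 interactions and a ratio of 1.90. The ratio was 2.17 at 0.5% to 2%, whose deeper libraries weigh most in the sum, and 1.45 at 3% to 5%. At 3% to 5% the lower flank was ahead from 430 to 490 kb, with log2 ratios of upper over lower of -0.88, -0.49 and -0.58 in the 3 windows and the upper one higher in 0, 0 and 1 of 3 concentrations. The low-input ratio from 310 to 590 kb was 2.05, with the upper flank ahead at 13 of the 14. From 810 to 950 kb the lower flank was ahead at 7 consecutive distances, with 1297 against 827 interactions and a ratio of 0.638 (low-input 0.542, lower ahead at 6 of 7).

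The stretch from 310 to 590 kb took a changing part of the upper flank. It held 30.9% to 39.8% of the upper flank's interactions in the libraries of 0.5% to 2% and 24.9% to 26.5% in those of 3% to 5%, without overlap. In the low-input libraries it held 25.2% to 47.1% with a median of 34.7%. The innermost window moved the other way, from 16.1% to 26.0% of the upper flank at 0.5% to 2% to between 31.9% and 37.4% at 3% to 5%, with 22.6% to 31.8% in low-input libraries. On the lower flank the same stretch held 22.2% to 27.1% and 24.01% to 26.6%, which overlap. Whether the batch or the formaldehyde set these parts cannot be told apart.

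Departures of single windows from the decay were measured as the log2 of observed over fitted interactions, with 1 exponent for both flanks, for each of the 6 fixed concentrations. Of 88 windows, 19 lay above the fit in all 6 concentrations and 26 below. In the low-input libraries, which the choice of windows did not use, 7 of these were above and 16 below in all 6 groups as well. The mean departures of the fixation and the low-input series had a Pearson correlation of 0.798 over the 88 windows. It was 0.704 over the lower and 0.843 over the upper flank. This is a description across windows, which share libraries, fragments and neighbours. The low-input mean had the sign of the fixation mean in 69 of 88 windows.

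**Figure D4:**
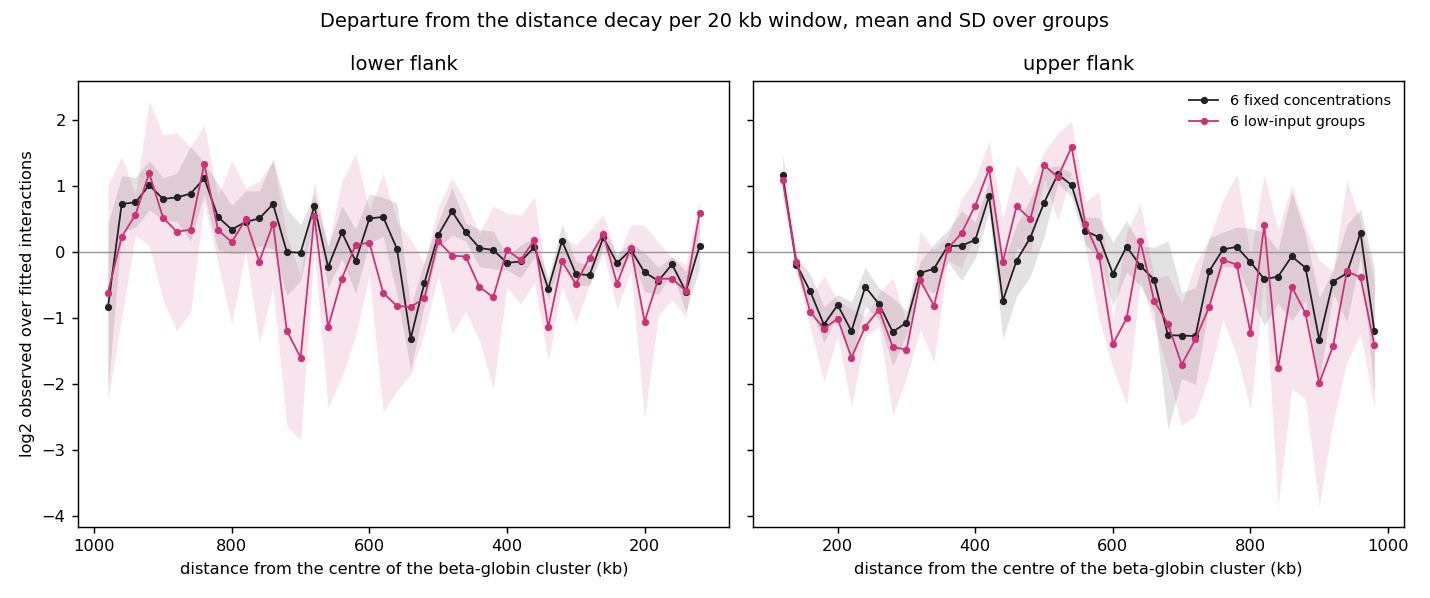
Log2 of observed over fitted interactions per 20 kb window against distance from the centre of the β-globin cluster (kb), mean (points) and SD (bands) over the 6 fixed concentrations (black) and the 6 low-input groups (magenta). On the upper flank both series lie below 0 from 130 to 350 kb and above it from 490 to 570 kb.

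On the upper flank the 3 highest departures belonged to the innermost window and to 2 neighbours near 500 kb. The window at 110 to 130 kb lay 1.16 ± 0.32 above the fit in log2 (SD, n = 6 concentrations) and 1.08 ± 0.06 in the low-input groups (n = 6). The window at 510 to 530 kb (chr7:111480001-111500000) lay 1.17 ± 0.13 above it, and 1.13 ± 0.67 in the low-input groups. The window at 530 to 550 kb (chr7:111500001-111520000) lay 1.01 ± 0.18 above it, and 1.58 ± 0.39 in the low-input groups. All 3 were above the fit in every fixed concentration and every low-input group.

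At 530 to 550 kb the upper window held 47.5 and 21.1 interactions per 100000 at 0.5%, 69.9 and 93.1 at 1%, 61.2 and 105 at 2%, and 56.8 to 77.8 in the 6 libraries of 3% to 5%. The matching lower window (chr7:110420000-110439999) was among the 3 lowest of its flank, 1.31 ± 0.48 below the fit (the log2 ratio being -1.31), and -0.84 ± 1.02 in the low-input groups. It held 94 interactions over the 6 fixed concentrations against 659 in the upper window, a log2 ratio of 2.81 and the widest gap between flanks at any distance. The upper window held more in each of the 6 concentrations and each of the 6 low-input groups, with 211 against 39 low-input interactions. Of listed fragments there were 45 in the upper and 33 in the lower window.

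Next to the innermost window the upper flank lay low. All 11 windows from 130 to 350 kb (chr7:111100001-111320000) were below the fit, with a mean log2 ratio of -0.74. Their mean in the low-input groups was -1.004, with all 11 below 0. From 350 to 430 kb 4 windows lay above the fit, with a mean of 0.30 in fixed cells and 0.57 in the low-input groups. From 430 to 470 kb 2 windows had a mean of -0.44 in fixed cells and 0.27 in the low-input groups. The 3 lowest windows of the upper flank lay farther out, at 690 to 710 kb (chr7:111660001-111680000), 710 to 730 kb (chr7:111680001-111700000) and 890 to 910 kb (chr7:111860001-111880000). Their mean log2 ratios were -1.27 ± 0.65, -1.28 ± 0.73 and -1.34 ± 0.64, each below 0 in all 6 concentrations. The first was below 0 in all 6 low-input groups and the other two in 5 of 6. The outermost full window at 970 to 990 kb (chr7:111940001-111960000) lay at -1.20 ± 0.95 in fixed cells and -1.41 ± 0.96 in the low-input groups.

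On the lower flank departures were smaller near the cluster and positive far out. The innermost window lay at 0.09 ± 0.34 in fixed cells, above the fit in 3 of 6 concentrations, and at 0.59 ± 0.19 in the low-input groups, above it in all 6. Its neighbour at 130 to 150 kb (chr7:110820000-110839999) was among the 3 lowest of its flank, at -0.61 ± 0.30 and -0.59 ± 0.40. A run of 12 windows from 730 to 970 kb (chr7:110000000-110239999) lay above the fit with a mean log2 ratio of 0.72. In the low-input groups their mean was 0.47, and 11 of the 12 were above 0. It holds the 3 highest windows of the flank, at 830 to 850 kb (chr7:110120000-110139999), 910 to 930 kb (chr7:110040000-110059999) and 850 to 870 kb (chr7:110100000-110119999), with log2 ratios of 1.11 ± 0.24, 1.01 ± 0.37 and 0.88 ± 0.71.

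The first of these was above the fit in all 6 concentrations and all 6 low-input groups, the second in 6 and 5, and the third in 5 and 5. The outermost full window (chr7:109980000-109999999), also among the 3 lowest of its flank, with 14 listed fragments against a median of 41 over all windows, lay at -0.84 ± 1.25. With a decay fitted in each flank apart, the windows at 830 to 850 kb and 910 to 930 kb came to 0.71 and 0.57, and the upper windows at 510 to 530 kb and 530 to 550 kb to 1.38 and 1.22. Across the 88 windows the number of listed fragments and the departure had a Spearman correlation of 0.422 (0.297 on the lower and 0.619 on the upper flank). The fixation table, from which this number is taken, lists a flank fragment only where a library counted it, so this number is not independent of contact, and its part in the departures was not tested.

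Even the outer windows stayed above the level of other chromosomes. From 790 to 990 kb the lower flank held 16.5 times that level at 0.5% formaldehyde, 35.5 times at 1%, 60.3 times at 2% and 75.0 to 96.0 times at 3% to 5%. The upper flank there held 10.2, 25.5, 47.3 and 56.6 to 74.1 times that level, lower than the lower flank at each concentration. In the unfixed cells both were near 1, with 1.04 and 1.21 times.

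Single windows were tested for a trend with formaldehyde by edgeR's quasi-likelihood test on the counts of 7 concentrations, with Benjamini-Hochberg adjustment over all windows of chromosome 7 tested. Of 85 flank windows with a mean count of at least 10, 2 rose relative to the other windows at an adjusted p under 0.05 and 0 fell, and 10 had an unadjusted p under 0.05. Over all 1027 windows tested, 0.779% rose and 0.584% fell. DESeq2 called 1 flank window as rising and 0 as falling, against 0.779% and 0.195% of all windows. The median log2 change per 1% was 0.06 over the flank windows and 0.01 over all windows. Both windows that rose lie at 850 to 870 kb, one on each flank.

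The upper one (chr7:111820001-111840000) rose by 0.48 in log2 per 1% formaldehyde (SE 0.10, edgeR adjusted p = 0.00728). It held 3.96 and 4.22 interactions per 100000 at 0.5%, 6.35 and 11.9 at 1%, 16.7 and 11.4 at 2%, 12.4 and 23.1 at 3%, 38.9 and 19.1 at 4%, and 37.0 and 46.7 at 5%. The lower one (chr7:110100000-110119999) rose by 0.36 (SE 0.10, edgeR adjusted p = 0.0484). It held 7.12 and 6.33 per 100000 at 0.5%, 7.41 and 19.8 at 1%, 29.6 and 8.79 at 2%, 39.8 and 26.6 at 3%, 16.4 and 29.5 at 4%, and 38.9 and 46.7 at 5%. Their libraries overlap between neighbouring concentrations, and they rest on 4 to 46 interactions in a fixed library. Without replicate 1 of 0.5% formaldehyde neither was called, with edgeR adjusted p of 0.0575 and 0.174, and the lower one was called in only 2 of the 14 fits that leave out 1 library.

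Over the 6 fixed concentrations alone, 87 flank windows were tested, of which 5 rose and 3 fell. Over all 1145 windows tested in that fit, 2.88% rose and 1.05% fell, and 20 flank windows had an unadjusted p under 0.05. The 5 that rose were both windows at 850 to 870 kb, the lower ones at 710 to 730 kb and 730 to 750 kb, and the innermost upper window, which rose by 0.23 in log2 per 1% (SE 0.07, edgeR adjusted p = 0.0288). The 3 that fell were neighbours on the upper flank from 430 to 490 kb, by 0.26 to 0.30 per 1% (edgeR adjusted p = 0.0377 to 0.0472). Within 0.5% to 2% and within 3% to 5%, edgeR called 0 flank windows in either direction, with 5 at an unadjusted p under 0.05 in each. These fits within batches took each library as a separate sample, so technical replicates counted as independent there. Over all windows tested in these fits 0.258% of 776 and 0.571% of 350 rose, and 0% fell in either. When library size was the total on chromosome 7 in place of TMM factors, 1 of 87 flank windows rose and 18 fell over the fixed concentrations, against 1.22% and 10.5% of all 1145 windows tested. That scaling moved the median log2 change of all windows to -0.12 per 1%, and the split between rising and falling windows depends on it.

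**Figure D5:**
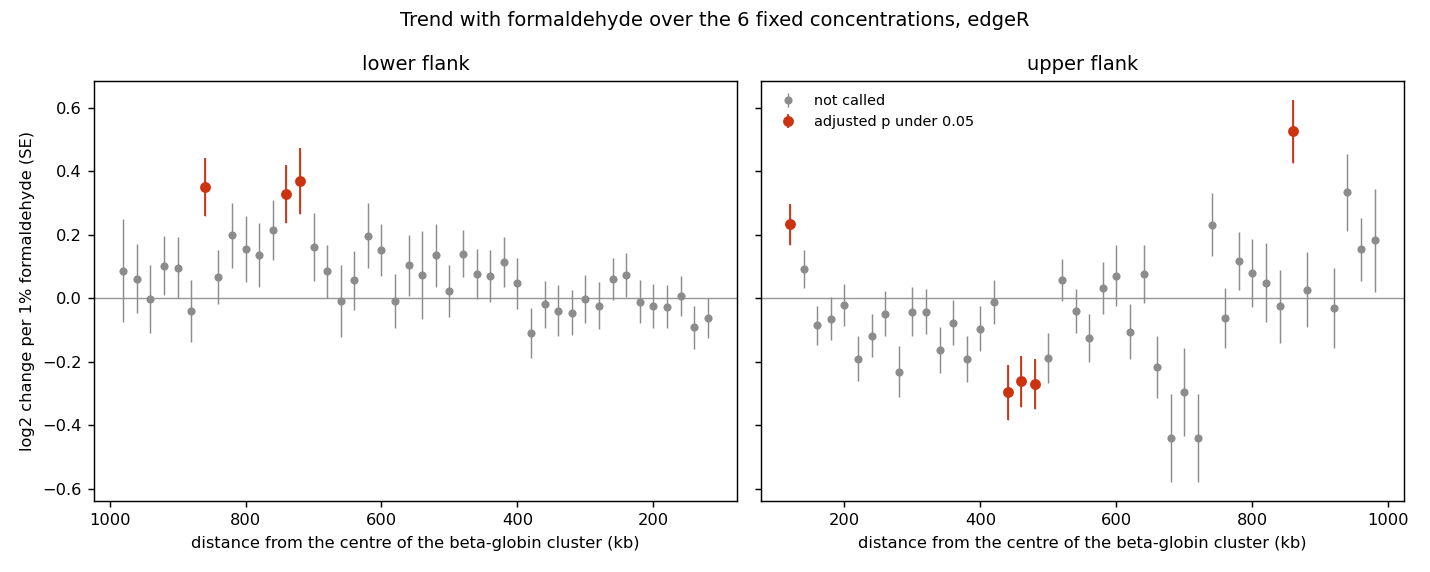
Log2 change per 1% formaldehyde (points, bars SE) over the 6 fixed concentrations for each tested 20 kb window against distance from the centre of the β-globin cluster (kb), with windows at an adjusted p under 0.05 in red. The 3 red points below 0 are neighbours on the upper flank from 430 to 490 kb, and 3 of the 5 red points above 0 lie on the lower flank.

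Tag-Capture-C and LI-Capture-C gave flank values whose differences did not pass the test. With protocol labels exchanged within each input (exact permutation test, 8000 assignments), the share of all interactions was 0.205 percentage points higher with Tag-Capture-C (p = 0.212, adjusted over 4 measures 0.425). The share of cis interactions was 0.112 points higher (exact p = 0.678, adjusted 0.762), and the exponent was 0.0167 higher (exact p = 0.762, adjusted 0.762). The log2 ratio of upper over lower flank was 0.25 higher (exact p = 0.0258, adjusted 0.103), with medians of 0.23 over 9 LI-Capture-C and 0.45 over 9 Tag-Capture-C libraries. Of 41 windows of chromosome 7 tested by edgeR, 0% were higher and 2.44% lower with Tag-Capture-C. Of the 15 flank windows among them edgeR called 0, with 0 at an unadjusted p under 0.05, and DESeq2 also called 0, against 0% higher and 2.44% lower of all 41. At a mean count of at least 10 the remaining 73 flank windows were too shallow to be tested.

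DNA input bore on 1 of 8 trends. With LI-Capture-C the flank share of all interactions rose by 0.454 percentage points per doubling of input (exact permutation test over 9 libraries, p = 0.00595, adjusted over 8 slopes 0.0476). It was 4.31%, 3.70% and 4.67% at 50 ng, 4.62%, 5.12% and 4.67% at 100 ng, and 5.19%, 5.04% and 5.18% at 200 ng. All 200 ng libraries lay above all 50 ng libraries, and 1 of the 100 ng libraries overlapped with the 200 ng ones. With Tag-Capture-C the slope was 0.182 (exact p = 0.176, adjusted 0.485), and the difference between both slopes was -0.272 (exact test exchanging protocol labels within inputs, p = 0.175, adjusted 0.627). Of the 9 fits that leave out 1 LI-Capture-C library, 8 lost the call, those without any one of the 200 or 100 ng LI-Capture-C libraries or without replicate 1 or 2 at 50 ng. The percentage of interactions in cis moved with input in the same LI-Capture-C libraries, from a mean of 56.4% at 50 ng to 64.6% at 200 ng. The share of cis interactions had a slope of 0.217 there (exact p = 0.430, adjusted 0.485). No flank window was called for input by edgeR (0 of 15, with 0 at an unadjusted p under 0.05), against 4.88% of 41 windows that rose with input and 0% that fell, and DESeq2 called 0 of 15, against 2.44% in each direction.

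Compared with the same distances around the other viewpoints, the β-globin flanks held a smaller part of cis contact than those of α-globin. Contact also fell off more steeply than at both. Distances were counted from position 110970000 for β-globin. For the other viewpoints they were counted from the fragment with the most cis interactions in the fixation series. What this difference in centres does to the comparison was not tested. The share of cis interactions minus that of the α-globin flanks was -1.501 percentage points over 7 concentrations (exact sign-flip test, p = 0.0156, adjusted over 8 comparisons 0.0417). Over the 6 low-input groups the difference was -1.09 (exact p = 0.0313, adjusted 0.0417). Against Slc25a37, which encodes the mitochondrial iron importer mitoferrin-1, the differences were 0.406 and 0.259 (exact p = 0.391 and 0.406, adjusted 0.406 for both). In fixed libraries the share was 7.08% to 10.0% for β-globin, 7.38% to 13.7% for α-globin and 5.20% to 10.5% for Slc25a37. The β-globin exponent of -1.64 to -1.31 in those libraries did not overlap with the -1.02 to -0.799 of α-globin or the -1.19 to -0.848 of Slc25a37.

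The difference in exponent from α-globin was -0.529 over the concentrations (exact p = 0.0156, adjusted 0.0417) and -0.647 over the low-input groups (exact p = 0.0313, adjusted 0.0417). From Slc25a37 it was -0.406 (exact p = 0.0156, adjusted 0.0417) and -0.567 (exact p = 0.0313, adjusted 0.0417). With a least-squares fit to log2(count + 1) in place of the Poisson fit, no difference in exponent passed the threshold: those from α-globin were -0.117 and -0.153, and those from Slc25a37 -0.236 and -0.514. The Poisson fit is weighted by the windows with many interactions, which lie next to the cluster.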

How the data were processed

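Capture-C libraries of primary erythroid cells were analysed from 3 viewpoints, with 14 fixation and 18 low-input libraries; libraries made from small cell numbers hold the α-globin viewpoint alone and were not used here. The authors trimmed and mapped the reads (Trim Galore, Bowtie and mm9 per the submitters' processing notes) and the deposited values are counts of unique interactions per DpnII fragment, without normalization. They had discarded PCR duplicates, judged by the ends of the read pairs, and had pooled both globin promoters. In low-input libraries the filter was stricter and also removed reads whose ends differed slightly. The paper calls it conservative and says that it undercounts unique interactions. Duplicate removal sets how many interactions count as unique, and interval estimates cover counting error only. All columns of the 6 tables used were mapped to a sample, and 0 pairs of libraries were identical.

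Interactions were summed in 44 full 20 kb windows per flank, numbered outwards; a last 10 kb enters flank totals only. The members and window lists were chosen with earlier results of these data known. Named windows are the innermost, the outermost, the 3 highest and the 3 lowest by observed over fitted interactions on each flank, and up to 2 called windows per test and direction; the other windows called over fixed cells were named after their values were seen. Where a summed count was 0, 0.5 replaced it in log2 ratios. Single values were tested with exact permutations in Python 3.11.15 (NumPy 2.4.6, pandas 2.3.3, SciPy 1.17.1). Windows were tested with edgeR 4.0.16 in R 4.3.3 (TMM, mean count of at least 10, adjusted p under 0.05). Technical replicates of a concentration were summed, except in the fits within batches and where stated otherwise. Deviations of same-numbered libraries had a mean correlation of 0.0298 over 42 fixation pairs (-0.219 to 0.283). Over 45 low-input pairs it was 0.0328 (-0.192 to 0.276). Such values cannot exclude that the numbers pair samples, and the main tests treated libraries as unpaired. DESeq2 1.42.0 was an alternative. Plots used matplotlib 3.10.9. Tested on simulated counts, edgeR recovered 112 of 113 windows with a log2 change of 0.4 per 1% formaldehyde among 1028 tested (1 false call). It recovered 10 of 10 protocol windows with a log2 change of 1.5 among 41. Of input windows with a log2 change of 1 it recovered 9 of 9 among 40 (1 false call). The simulation gave all libraries, unfixed ones included, the same underlying window profile and 1 preset dispersion. It did not use the spread of the real replicates, and smaller changes were not simulated. It therefore does not give the power for the real libraries.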

Additional observations from a re-analysis of the deposited data

How the results depend on the processing

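Unless named here or beside the result, each tested value other than single windows kept its direction and its side of the threshold under the alternatives tried, which were 10 kb and 40 kb windows, a least-squares decay, other library sizes, DESeq2, other filters on low counts, single fragments, fixed cells only, ranks of concentration, leaving out the fragment with the most interactions, and leaving out each library. The cause of a change was not tested. The alternatives with a constant for other chromosomes, with fixed cells only for levels and viewpoints, with chromosome 7 library size in fixed cells, within batches and with decays per flank were chosen after seeing the data. Low-input windows are limited by depth, since 15 of 88 reached the count minimum.

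Over fixed cells only the slope of the share of cis interactions was -0.474. On the rank of the concentration the slope of the share of all interactions was 0.721 and that of the exponent -0.156, both now past the threshold (adjusted exact p = 0.0127). With a constant for other chromosomes the exponent slope was 0.210 (adjusted exact p = 0.486). That fit gave -5.94 and -1.45 in the unfixed libraries, which held 86 and 97 flank interactions near the level of other chromosomes. In the fixed libraries it gave -1.66 to -1.35, against -1.64 to -1.31 without the constant. Without the fragment with the most interactions, the low-input log2 ratio of upper over lower flank was 0.36 and the low-input difference in exponent -0.164 (adjusted exact p = 0.0625 for both). With least squares, the exponent differed between Tag-Capture-C and LI-Capture-C by -0.0530, its input slope was -0.284 for LI-Capture-C (adjusted exact p = 0.0238) and -0.114 for Tag-Capture-C (adjusted exact p = 0.0254), and its viewpoint differences were -0.117, -0.153, -0.236 and -0.514.

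Whether the replicate numbers pair the samples is not settled. With the replicate block, the slope of the share of all interactions, 0.758, and that of the exponent, -0.159, passed the threshold (adjusted permutation p = 0.0101 and 0.0389), and the LI-Capture-C input slope of the share, 0.454, did not (adjusted permutation p = 0.222). The block treats technical replicates as separate samples.

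For flank windows that rose with formaldehyde, with the share of all windows that rose in brackets, edgeR called 0 with the total of all interactions (0.0974%) or of chromosome 7 (0.0974%) as library size and with no filter (0.0145%), 1 with a mean count of at least 5 (0.107%), 6 single fragments (18.3%), 5 over fixed cells (2.88%), and 1 over fixed cells with chromosome 7 library size (1.22%). DESeq2 called 1 (0.779%). For those that fell, edgeR called 1 with chromosome 7 library size (1.17%), 18 of 66 single fragments (18.1%), 3 with the replicate block (1.32%), 4 with 14 libraries as separate samples (1.76%), 3 over fixed cells (1.05%), and 18 over fixed cells with chromosome 7 library size (10.5%). With no filter, 1 window rose with input (0.356%).

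Leaving out each library in turn, the fixation difference in exponent ranged from -0.541 to -0.337, the low-input one from -0.200 to -0.145, the low-input log2 ratio from 0.35 to 0.40, and the LI-Capture-C input slope of the share of all interactions from 0.323 to 0.546. Values that changed sign without 1 library, with none past the threshold, were the Tag-Capture-C minus LI-Capture-C differences in share of cis interactions (-0.0730 to 0.255) and exponent (-0.0130 to 0.0441), the input slopes of LI-Capture-C for share of cis interactions (-0.0308 to 0.424), exponent (-0.0746 to 0.00443) and log2 ratio (-0.00115 to 0.127), and those of Tag-Capture-C for exponent (-0.000482 to 0.0522) and log2 ratio (-0.138 to 0.00447). Windows that rose with formaldehyde numbered 0 to 2.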
